A study of Bos taurus with 20 samples.

Results

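Translation initiation factors bring an mRNA, the initiator tRNA and the ribosome together at a start codon. In bovine morulae, 45 of the 26773 probe sets of the array represented them, 1 for each of 45 genes. These are the probe sets whose only gene symbol in the array annotation begins with EIF and a digit. The rule left out 3 probe sets, for *EIF1AX*, *EIF1AY* and *EIF2S3*. A further 6 EIF probe sets, for *EIF1*, *EIF3M*, *EIF4A2*, *EIF4E2* and *EIF5B*, carry several symbols and are not included. By gene identifier, all 45 genes have the same symbol in the RefSeq gene table of ARS-UCD2.0, which places them on autosomes.

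Expression was measured in female embryos, produced with X-sorted sperm, and male embryos, produced with Y-sorted sperm. On Day 5 after insemination, embryos received recombinant human DKK1, a secreted antagonist of WNT signaling, at 100 ng/ml or vehicle (DPBS with BSA). All embryos were made and cultured in vitro, and morulae were harvested on Day 6, after 24 h. The 4 groups (control and DKK1 of each sex) have 5 arrays each, and each array holds amplified RNA of 1 pool of 20 morulae. Sex is that of the sorted sperm, so a pool can hold embryos of the other sex. Because pools of whole embryos were measured, fewer cells of a type and less RNA per cell cannot be told apart.

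Initiation begins when eIF2, carrying GTP, delivers the initiator tRNA to the small ribosomal subunit, aided by eIF1, eIF1A, eIF3 and eIF5. The cap-binding protein eIF4E, the scaffold eIF4G and the helicase eIF4A load the mRNA, and eIF2B recharges eIF2 with GTP for another round. Cells adjust the rate through kinases that phosphorylate eIF2 and through binding proteins that hold eIF4E away from eIF4G. In early embryos translation is known to draw first on stored maternal mRNA and later on mRNA from the embryo's own genome.

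Values are log2 intensities, on which a difference of 1 is 2-fold. The tested set holds the probe sets of highest mean over the 20 arrays, down to a mean of 5.48, and 41 of the 45 initiation factors are in it. Arrays correlated with each other at 0.936 to 0.974. An array, labelled male control replicate 2, went against its label. Its *XIST* signal was 8.81, within the female range of 8.42 to 10.03, whereas the other 9 male arrays were between 6.30 and 8.22. Its *DDX3Y* signal was 4.82, within the female range of 2.65 to 5.43 and below the other male arrays (6.29 to 8.36). It also had the lowest median of the tested set, 7.03 against 7.22 to 7.39 on the other arrays, so results are given with and without it. Single members were compared by two-sided exact permutation tests over arrays, run for all 45 members and 5 contrasts and not adjusted, and by limma with adjusted P values. Exact tests were not run for other probe sets, so the share of the tested set with a small exact P is not known. With 5 against 5 arrays the smallest exact P is 0.00794, and the number of arrays limits the precision of every value. All 8 morula, epiblast and trophectoderm markers were in the tested set, from *NANOG* at 6.56 to *GATA6* at 10.57. Of 16 cumulus and granulosa markers on the array, only *COL1A1* (5.71) was in it, and of 7 sperm markers only *TNP2* (6.87).

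The initiation factors gave high signals. The mean was at or above 9 for 24 of 45 (53.3%), against 6.83% of all probe sets, and 22 of the 45 were in the top 5% of probe sets. Probe sets differ in how strongly they bind their target, so the order of signals is not an order of RNA amounts.

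**Figure D1:**
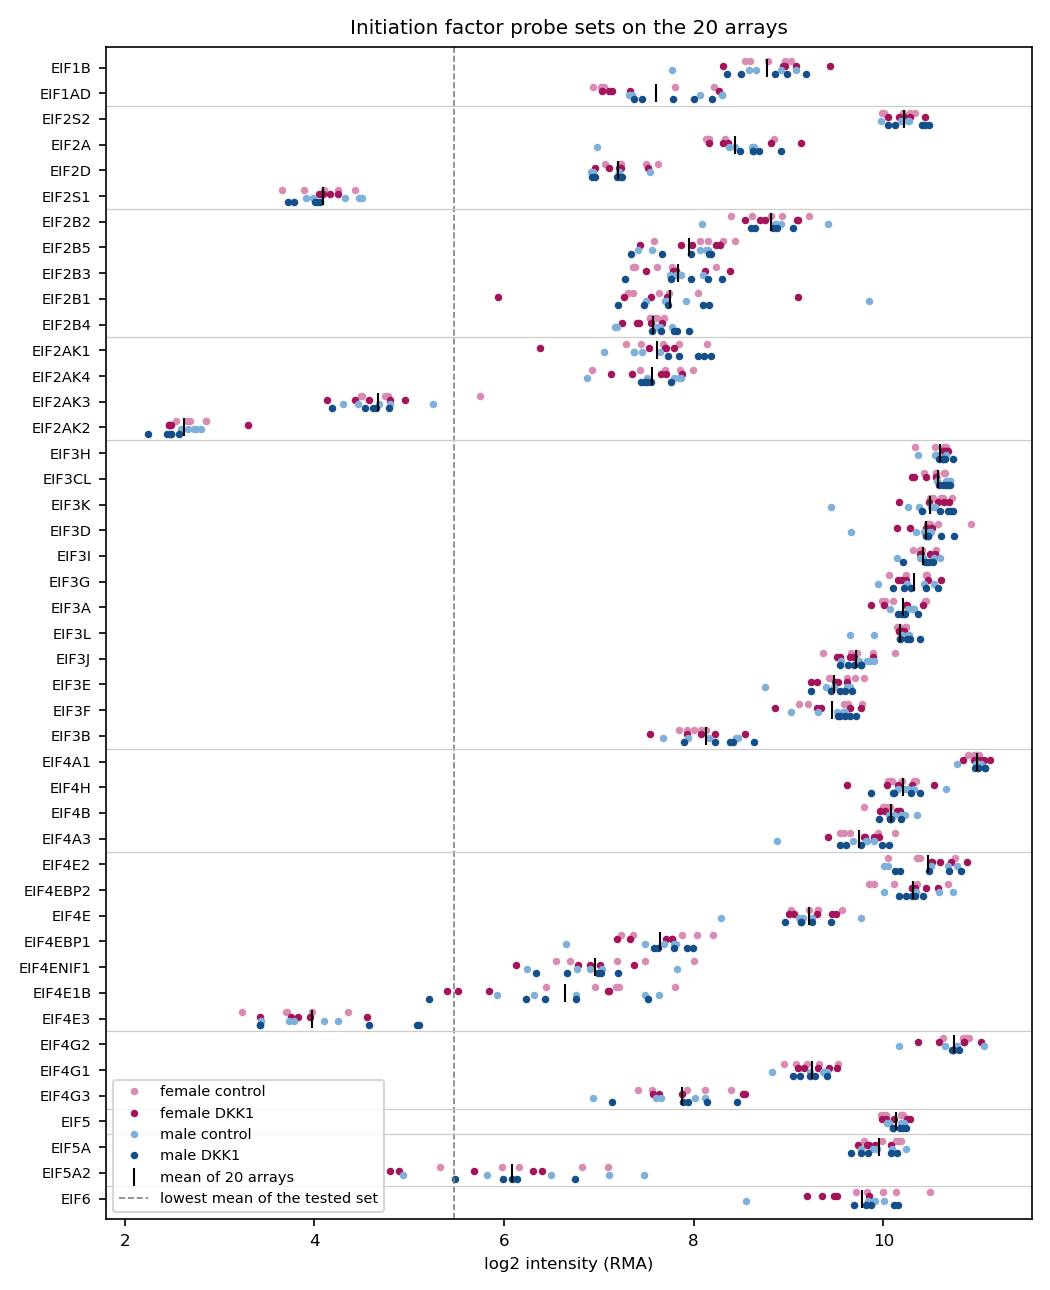
Log2 intensity (horizontal axis) of the 45 initiation factors (vertical axis, grouped by factor) on the 20 arrays, coloured by group, with the mean as a vertical tick and the lowest mean of the tested set as a dashed line. Most eIF3, eIF4A/B/H and eIF4G signals lie at or above 9, and *EIF2AK3*, *EIF2S1*, *EIF4E3* and *EIF2AK2* lie left of the line.

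Of the factors that act at the start codon, *EIF1B*, a close relative of *EIF1*, had a mean of 8.78 and a range of 7.77 to 9.44 over the 20 arrays. *EIF1AD*, placed here only for its name, after a domain shared with eIF1A, had a mean of 7.60 (6.94 to 8.30). *EIF5*, which triggers GTP hydrolysis by eIF2, had a mean of 10.13 and varied little (9.98 to 10.29). The within-group SD was 0.102 for *EIF5* and 0.488 for *EIF1AD*.

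The 2 probe sets for subunits of eIF2 gave unlike signals. *EIF2S2*, the beta subunit, had a mean of 10.22 (9.98 to 10.48), at the 97.3rd percentile of all probe sets. *EIF2S1*, the alpha subunit that eIF2 kinases phosphorylate, had a mean of 4.09 (3.65 to 4.50), at the 38.9th percentile and below the tested set. *EIF2A*, a separate protein that binds initiator tRNA, had a mean of 8.44, and *EIF2D*, which takes part in reinitiation, had a mean of 7.20.

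All 5 subunits of eIF2B, the exchange factor for eIF2, were in the tested set. Their means were 8.82 for *EIF2B2*, 7.95 for *EIF2B5*, 7.84 for *EIF2B3*, 7.75 for *EIF2B1* and 7.57 for *EIF2B4*. *EIF2B1* had the largest within-group SD of the 45 (0.786). It was 5.93 on female DKK1 replicate 5, 9.10 on female DKK1 replicate 4 and 9.85 on male control replicate 2, and between 7.21 and 8.16 on the other 17 arrays.

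The 4 eIF2 kinases were split by the tested set. *EIF2AK1*, the heme-regulated kinase, and *EIF2AK4*, which senses uncharged tRNA, had means of 7.62 and 7.56. *EIF2AK3*, which senses stress of the endoplasmic reticulum, had a mean of 4.67 (50.5th percentile). *EIF2AK2*, activated by double-stranded RNA, had a mean of 2.63 (percentile 9.83) and was at or below 3.30 on every array. Signals at this level do not show whether an mRNA was present.

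The eIF3 complex, the large scaffold on the small ribosomal subunit, was represented by 12 subunits, all in the tested set. Means were 10.60 for *EIF3H*, 10.58 for *EIF3CL*, 10.49 for *EIF3K*, 10.45 for *EIF3D*, 10.42 for *EIF3I*, 10.32 for *EIF3G*, 10.21 for *EIF3A* and 10.18 for *EIF3L*. *EIF3J*, a loosely bound subunit, was at 9.72, *EIF3E* at 9.48, *EIF3F* at 9.46 and *EIF3B* at 8.13. *EIF3CL* is the entry that the RefSeq table gives the synonym *EIF3C*. Within-group SD ran from 0.083 for *EIF3CL* to 0.291 for *EIF3B*, and the means of all subunits but *EIF3B* were between 9.46 and 10.60.

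Among the mRNA-loading factors, the helicase *EIF4A1* had the highest mean of the 45, 10.99, at the 98.7th percentile. It stayed between 10.78 and 11.12 on the 20 arrays and had the smallest within-group SD (0.082). Its cofactors *EIF4H* and *EIF4B* had means of 10.20 and 10.09. *EIF4A3*, the helicase of the exon junction complex, had a mean of 9.74.

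The eIF4E family spanned most of the signal scale. *EIF4E*, the main cap-binding protein, had a mean of 9.21. *EIF4E2*, a relative linked to repression of translation, had a mean of 10.47, and *EIF4E3* had a mean of 3.97, below the tested set. The other *EIF4E2* probe set, not included because it carries several symbols, had a mean of 4.85, also below the tested set. *EIF4E1B*, an oocyte form of eIF4E in frogs, zebrafish and mice, had a mean of 6.64 and ran from 5.21 to 7.80.

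Of the proteins that bind eIF4E, *EIF4EBP2* had a mean of 10.32 and *EIF4EBP1* a mean of 7.64. Both keep eIF4E from eIF4G until they are phosphorylated by mTOR. *EIF4ENIF1*, which carries eIF4E into the nucleus, had a mean of 6.96. The scaffolds *EIF4G1* and *EIF4G3* had means of 9.24 and 7.87, and *EIF4G2*, a relative that lacks the eIF4E-binding site, had a mean of 10.75.

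The remaining members act around elongation and subunit joining. *EIF5A*, the protein modified with hypusine that promotes peptide bond formation, had a mean of 9.95, and its paralog *EIF5A2* had a mean of 6.09 with a within-group SD of 0.760. *EIF6*, which keeps the large subunit from joining too early, had a mean of 9.77. Spread was related to signal, as it was for other probe sets. The median within-group SD was 0.198 for the 24 members at or above 9 and 0.367 for the 17 tested members below it. For all tested probe sets these medians were 0.225 (n = 1829) and 0.397 (n = 8104).

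The first comparison asked whether DKK1 altered the initiation factors over both sexes. None of the 41 tested members passed an adjusted P of 0.05 (limma, Benjamini-Hochberg over the whole tested set), and 0% of the tested set did. At an unadjusted limma P under 0.05, 0 members were higher and 1, *EIF4E1B*, was lower, whereas 2.37% of the tested set were higher and 1.25% lower. The median difference of the 41 was 0.03, and that of all tested probe sets was also 0.03. The difference was above 0 for 24 members, but for 17 with each array centred on its median, for 19 after quantile normalization and for 18 without male control replicate 2. Of the tested set, 58.5% were above 0, and 47%, 49.2% and 52.6% in those settings. The 95% interval of the DKK1 difference lay within 1.5-fold in either direction for 35 of 41 members and within 2-fold for 39.

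*EIF4E1B* had the smallest limma P for DKK1. It was 6.44, 7.18, 7.80, 7.22 and 6.96 in female control pools (replicates 1 to 5) and 7.09, 5.40, 7.11, 5.84 and 5.52 in female DKK1 pools. In male embryos it was 7.63, 5.93, 6.31, 6.76 and 7.49 in control pools and 5.21, 7.51, 6.76, 6.43 and 6.23 in DKK1 pools. Female DKK1 replicates 2, 4 and 5 were below every female control pool, replicates 1 and 3 were inside its range, and the male groups overlapped. DKK1 minus control was -0.66 ± 0.308 (SE, exact permutation P = 0.0603, adjusted P = 0.9997). In females it was -0.93 (exact permutation P = 0.0794). In males it was -0.40 (exact permutation P = 0.452), and -0.62 (exact permutation P = 0.246) without male control replicate 2. The limma P over both sexes was under 0.05 in 15 of 30 alternative settings. Over both sexes the difference was -0.77 (exact permutation P = 0.0317) without that array.

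Oocyte transcripts as a list had mean signals of 5.29 to 6.48 on female control arrays, 4.91 to 5.68 on female DKK1 arrays, 5.36 to 5.90 on male control arrays and 5.19 to 5.99 on male DKK1 arrays. Of the 9 on the array, 4 were in the tested set, from *BMP15* at 7.70 down, and *ZAR1* was lowest at 4.28. Their part in the *EIF4E1B* values was not tested.

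*EIF5A2* and *EIF2A* had larger limma P values but moved when the array that went against its label was left out. *EIF5A2* was 7.10, 5.98, 5.32, 6.82 and 6.16 in female control pools and 6.31, 6.40, 5.69, 4.80 and 4.89 in female DKK1 pools. The male values were 7.47, 4.93, 6.50, 7.11 and 5.82 for control and 6.14, 5.99, 6.08, 6.75 and 5.48 for DKK1. All groups overlapped, and the DKK1 difference was -0.47 ± 0.315 (exact permutation P = 0.175). It was -0.65 (exact permutation P = 0.0437) without male control replicate 2, where *EIF5A2* was at 4.93.

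*EIF2A* ran the other way. Values were 8.33, 8.13, 8.14, 8.84 and 8.16 in female control pools, 9.13, 8.16, 8.36, 8.31 and 8.81 in female DKK1 pools, and 8.92, 8.49, 8.62, 8.63 and 8.68 in male DKK1 pools. Male control pools were at 8.61, 6.98, 8.37, 8.43 and 8.64, with replicate 2 more than 1 unit below the rest. The difference of 0.35 ± 0.187 (exact permutation P = 0.0642) became 0.19 (exact permutation P = 0.119) without that array. Without it, 3 members had a limma P under 0.05, *EIF4E1B*, *EIF5A2* and *EIF6* (-0.27), against 4.04% of the tested set.

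*EIF3H*, an eIF3 subunit whose limma P was not under 0.05, had a small exact P. It was 10.65, 10.55, 10.34, 10.64 and 10.66 in female control pools, 10.63, 10.63, 10.65, 10.68 and 10.66 in female DKK1 pools, 10.66, 10.36, 10.56, 10.58 and 10.55 in male control pools and 10.74, 10.65, 10.63, 10.59 and 10.63 in male DKK1 pools. All groups overlapped. The DKK1 difference was 0.10 ± 0.0692 (exact permutation P = 0.0120, adjusted P = 0.9997), and 0.07 (exact permutation P = 0.0243) without male control replicate 2.

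In female embryos, 0 members were higher with DKK1 at a limma P under 0.05 and 2, *EIF6* and *EIF4E1B*, were lower, against 2.51% and 1.6% of the tested set. None passed the adjusted P (0% of the tested set). The median difference was -0.04, against 0.02 for all tested probe sets, and 25 of 41 members were below 0. With centred arrays or quantile normalization 26 were below 0. Of the tested set, 53.6% were above 0, and 49.9% and 50.1% in those settings. The values of 0 members separated the female groups completely, as did those of 0.634% of the tested set.

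*EIF6* was 9.83, 10.14, 10.00, 10.50 and 9.71 in female control pools and 9.51, 9.48, 9.85, 9.19 and 9.36 in female DKK1 pools. All female DKK1 pools but replicate 3 were below every female control pool. The difference was -0.56 ± 0.232 (exact permutation P = 0.0238, adjusted P = 0.998), and the limma P was under 0.05 in 28 of 31 alternatives. Male control replicate 2 enters this contrast only through the shared estimate of spread, and without it the adjusted P was 0.938, the lowest of its 31 alternatives.

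**Figure D2:**
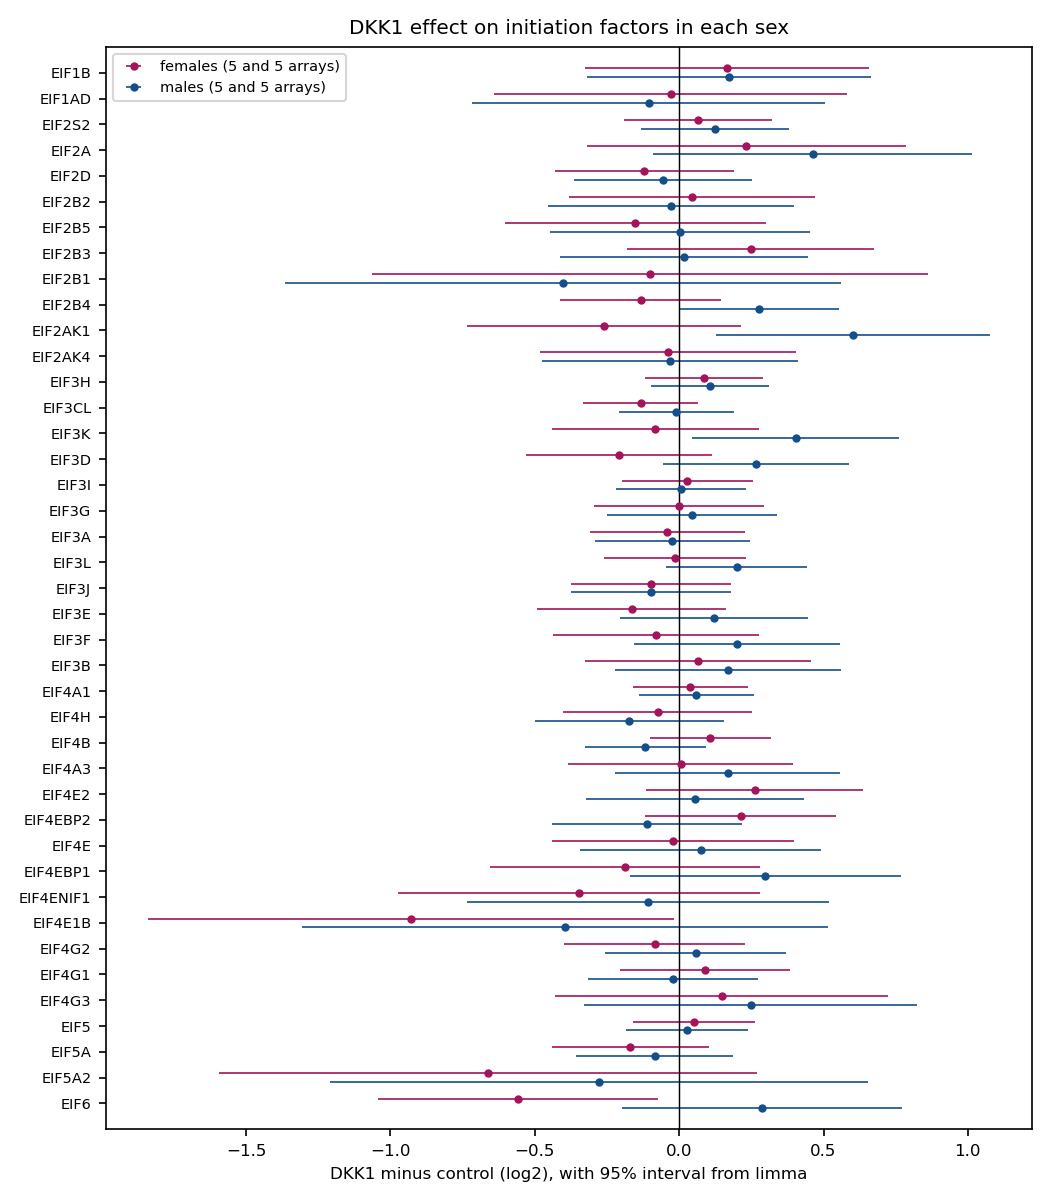
DKK1 minus control (log2, horizontal axis) for the 41 tested initiation factors in female and male embryos, 5 control and 5 DKK1 arrays per sex, with 95% intervals from limma. The interval excludes 0 for *EIF6* (-0.56) and *EIF4E1B* (-0.93) in females and for *EIF2AK1* (0.60) and *EIF3K* (0.40) in males, before adjustment.

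In male embryos, *EIF2AK1* and *EIF3K* were higher with DKK1 at a limma P under 0.05 and 0 members were lower, against 2.96% and 1.32% of the tested set. Again none passed the adjusted P (0% of the tested set). The median difference was 0.05, against 0.04 for all tested probe sets. The number of members above 0 was 25, but 17 with centred arrays, 18 after quantile normalization and 18 without male control replicate 2. Of the tested set, 56.9% were above 0, and 45.5%, 48.7% and 50.1% in those settings.

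*EIF2AK1*, the heme-regulated eIF2 kinase, was 7.65, 7.06, 7.46, 7.37 and 7.37 in male control pools and 7.85, 8.11, 7.73, 8.18 and 8.04 in male DKK1 pools. It was the 1 tested member whose male groups did not overlap, which was the case for 0.775% of the tested set. The difference was 0.60 ± 0.227 (adjusted P = 0.986), with an exact permutation P of 0.00794, the smallest that 5 against 5 arrays can give. The limma P was under 0.05 in all 31 alternatives. Without male control replicate 2, its lowest male pool, the difference was 0.52 (exact permutation P = 0.0159).

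*EIF3K*, a small subunit of eIF3, was 10.50, 9.44, 10.26, 10.37 and 10.54 in male control pools and 10.68, 10.60, 10.41, 10.73 and 10.71 in male DKK1 pools. Replicate 2 of the control was lowest, and the groups overlapped through DKK1 replicate 3. The difference of 0.40 ± 0.171 (exact permutation P = 0.0317, adjusted P = 0.986) was 0.21 (exact permutation P = 0.0556) without male control replicate 2. For *EIF2B4*, the delta subunit of eIF2B, the difference was 0.28 ± 0.133 (exact permutation P = 0.111), and 0.31 (exact permutation P = 0.111) without that array. *EIF2AK1* and *EIF2B4* were then the members with a limma P under 0.05, against 3.28% of the tested set.

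Of the 4 members below the tested set, which were examined in a fit over all probe sets, *EIF2S1* had the smallest limma P in males. It was 3.92, 4.50, 4.32, 4.47 and 3.99 in control pools and 3.72, 4.06, 4.02, 3.79 and 4.01 in DKK1 pools, a difference of -0.32 ± 0.145 (exact permutation P = 0.0794), and of -0.25 (exact permutation P = 0.143) without male control replicate 2. Control replicates 2, 3 and 4 were above every DKK1 pool. *EIF2AK2*, with the lowest mean, was 2.80, 2.59, 2.73, 2.67 and 2.75 in male control pools and 2.49, 2.25, 2.58, 2.48 and 2.45 in male DKK1 pools. The groups did not overlap, which was the case for 0.775% of the tested set. *EIF2AK2* is not in that set, and the share over all probe sets was not computed. The difference was -0.26 ± 0.140 (adjusted P = 0.9998). Its exact permutation P of 0.00794 is the value that complete separation gives. Without male control replicate 2 the difference was -0.29 (exact permutation P = 0.0159). Signals this low carry little information on the mRNA.

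The interaction asked whether DKK1 had a different effect in female and male embryos, and is the female difference minus the male one. Its exact tests exchange treatment labels within each sex, so they test for no DKK1 effect in either sex. They do not test for an equal effect in both. None of the 41 members passed the adjusted P (0% of the tested set). At a limma P under 0.05, 0 members had a positive and 4 a negative interaction, *EIF2AK1*, *EIF6*, *EIF2B4* and *EIF3D*, against 1.97% and 2.63% of the tested set. The median of the 41 was -0.08, against -0.02 for all tested probe sets. The interaction was below 0 for 29 members, 24 with centred arrays, 25 after quantile normalization and 22 without male control replicate 2, when the median was -0.01. Of the tested set, 47.2% were above 0, and 53%, 51% and 52.4% in those settings.

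**Figure D3:**
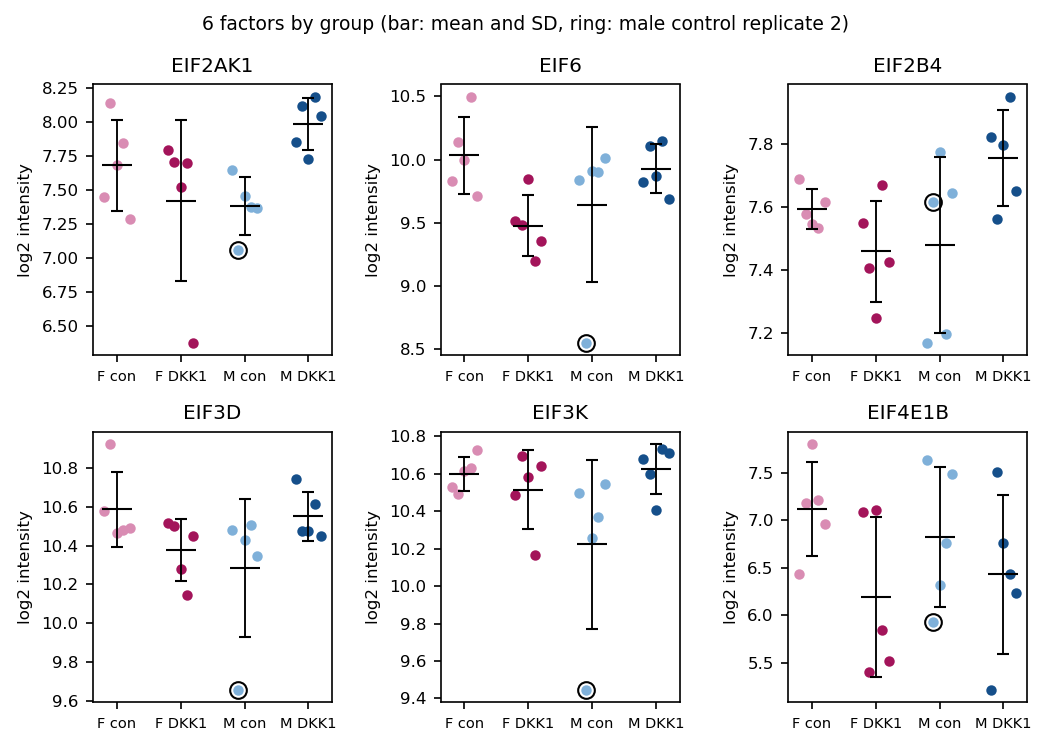
Log2 intensity (vertical axis, a scale for each panel) of 6 initiation factors in female (F) and male (M) control (con) and DKK1 pools, 1 point per pool, with mean and SD (n = 5) and a ring around male control replicate 2. The ringed pool is lowest for *EIF6* (8.55), *EIF3D* (9.66) and *EIF3K* (9.44), and male DKK1 pools lie above all male control pools for *EIF2AK1*.

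For *EIF2AK1* the female values were 7.45, 8.14, 7.68, 7.85 and 7.29 in control pools and 7.79, 7.71, 7.53, 7.70 and 6.38 in DKK1 pools. Female groups overlapped, with DKK1 replicate 5 more than 1 unit below the others. The interaction was -0.86 ± 0.321 (exact permutation P = 0.0128, adjusted P = 0.970). It was -0.78 (exact permutation P = 0.0201) without male control replicate 2 and -0.60 without female DKK1 replicate 5. The limma P was under 0.05 in all 31 alternatives.

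For *EIF6* the male values were 9.84, 8.55, 9.91, 9.90 and 10.01 in control pools and 9.82, 10.11, 9.87, 10.15 and 9.69 in DKK1 pools. Male control replicate 2 was the lowest of the 20 arrays, and the other 4 male control pools were inside the range of male DKK1. The interaction of -0.84 ± 0.328 (exact permutation P = 0.0111, adjusted P = 0.970) was -0.57 (exact permutation P = 0.0245) without that array. The male difference was then 0.01 in place of 0.29, while the female one remained -0.56.

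*EIF2B4* was 7.69, 7.58, 7.54, 7.53 and 7.62 in female control pools and 7.55, 7.41, 7.25, 7.67 and 7.42 in female DKK1 pools. In males it was 7.17, 7.62, 7.77, 7.19 and 7.64 in control pools and 7.82, 7.56, 7.80, 7.95 and 7.65 in DKK1 pools. Groups overlapped in each sex. The interaction was -0.41 ± 0.188 (exact permutation P = 0.0182, adjusted P = 0.970), and -0.45 (exact permutation P = 0.0192) without male control replicate 2. Its limma P was under 0.05 in 16 of 31 alternatives.

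*EIF3D*, an eIF3 subunit that can itself bind the cap of some human mRNAs, was 10.58, 10.92, 10.46, 10.48 and 10.49 in female control pools and 10.52, 10.50, 10.28, 10.15 and 10.45 in female DKK1 pools. In males it was 10.48, 9.66, 10.43, 10.50 and 10.35 in control pools and 10.74, 10.47, 10.47, 10.61 and 10.45 in DKK1 pools. Female control replicate 2 was the highest array and male control replicate 2 the lowest. The interaction of -0.48 ± 0.218 (exact permutation P = 0.00957, adjusted P = 0.970) was -0.32 (exact permutation P = 0.0205) without male control replicate 2. In that fit *EIF2AK1*, *EIF6* and *EIF2B4* were the members with a limma P under 0.05, against 4.12% of the tested set.

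Another 2 members had a small exact P for the interaction although their limma P was not under 0.05. For *EIF3K* it was -0.49 ± 0.242 (exact permutation P = 0.0254), and -0.29 (exact permutation P = 0.0457) without male control replicate 2. The female *EIF3K* values were 10.53, 10.49, 10.61, 10.63 and 10.73 for control and 10.49, 10.70, 10.58, 10.17 and 10.64 for DKK1, with DKK1 replicate 4 lowest. *EIF4B* ran the other way, at 0.23 (exact permutation P = 0.0171), and at 0.19 (exact permutation P = 0.0354) without that array, where it had its highest value of the 20 arrays (10.35).

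By complex, DKK1 minus control was below 0 in females for 9 of 12 eIF3 subunits (median -0.06) and above 0 in males for 9 of 12 (median 0.11). Of the tested set, 53.6% were above 0 in females and 56.9% in males. The male count was 7 with centred arrays or quantile normalization (45.5% and 48.7% of the tested set) and 6 without male control replicate 2 (50.1%). The interaction was below 0 for 10 of 12 subunits, with 47.2% of the tested set above 0, and for 8 under each of those 3 settings, with 51% to 53% above 0. Over the 41 members, 13 were below 0 in females and above 0 in males, 4 the reverse, 12 above 0 in both sexes and 12 below 0 in both. Without male control replicate 2 these counts were 10, 8, 8 and 15. The tested set was not split in this way. Female and male differences rest on different arrays, and the interaction is computed from both.

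For sex, 10 probe sets of the tested set (0.101%) passed the adjusted P and none was an initiation factor. At a limma P under 0.05, 0 members were higher in females and 1, *EIF3CL*, was lower, against 3.75% and 2.65% of the tested set. The median female minus male difference was 0.00, against -0.01 for all tested probe sets, and 37 of 41 members had a 95% interval within 1.5-fold in either direction. The number above 0 was 23, 23 with centred arrays and 20 after quantile normalization, but 10 without male control replicate 2. Of the tested set, 47.8% were above 0, and 48.7%, 47.4% and 41.6% in those settings.

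*EIF3CL* was 10.64, 10.56, 10.56, 10.65 and 10.43 in female control pools and 10.55, 10.30, 10.55, 10.45 and 10.32 in female DKK1 pools. In males it was 10.67, 10.70, 10.56, 10.67 and 10.70 in control pools and 10.70, 10.65, 10.59, 10.63 and 10.68 in DKK1 pools. The female DKK1 pools were below every male pool, the highest of them (10.55) just below the lowest male pool (10.56). The share of the tested set separated in this way was not computed. The female control pools overlapped with male ones. Female minus male was -0.15 ± 0.0674 (exact permutation P = 5.67e-04, adjusted P = 0.689), and also -0.15 (exact permutation P = 0.00161) without male control replicate 2. In that fit 8.11% of the tested set had a limma P under 0.05, and *EIF3CL* was the 1 member that did. The limma P was under 0.05 in 25 of 31 alternatives.

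*EIF1AD* had the next smallest limma P for sex. It was 8.21, 7.80, 7.03, 7.05 and 6.94 in female control, 7.32, 7.04, 7.14, 8.27 and 7.11 in female DKK1, 8.07, 8.30, 8.30, 7.32 and 7.35 in male control and 7.46, 7.79, 7.37, 8.01 and 8.19 in male DKK1 pools. Females had 3 pools above 7.5 and males 6, and the ranges overlapped. The difference was -0.42 ± 0.207 (exact permutation P = 0.0637), and -0.37 (exact permutation P = 0.112) without male control replicate 2. For *EIF3B* it was -0.19 (exact permutation P = 0.143), and -0.25 (exact permutation P = 0.0465) without that array.

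The array labelled male control replicate 2 stood apart for the initiation factors. It was the lowest of the 20 arrays for 19 of 41 tested members (46.3%), against 23.4% of the tested set. Among members with a mean at or above 9 it was lowest for 14 of 24, against 36.8% of tested probe sets at that level. The mean of the members was 8.33 on it and between 8.43 and 8.78 on the others. It was also the highest array for 3 members, *EIF2B1*, *EIF4B* and *EIF4H*. Next came female DKK1 replicate 5, lowest for 6 members (14.6%, against 5.91% of the tested set). What set these arrays apart was not tested.

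**Figure D4:**
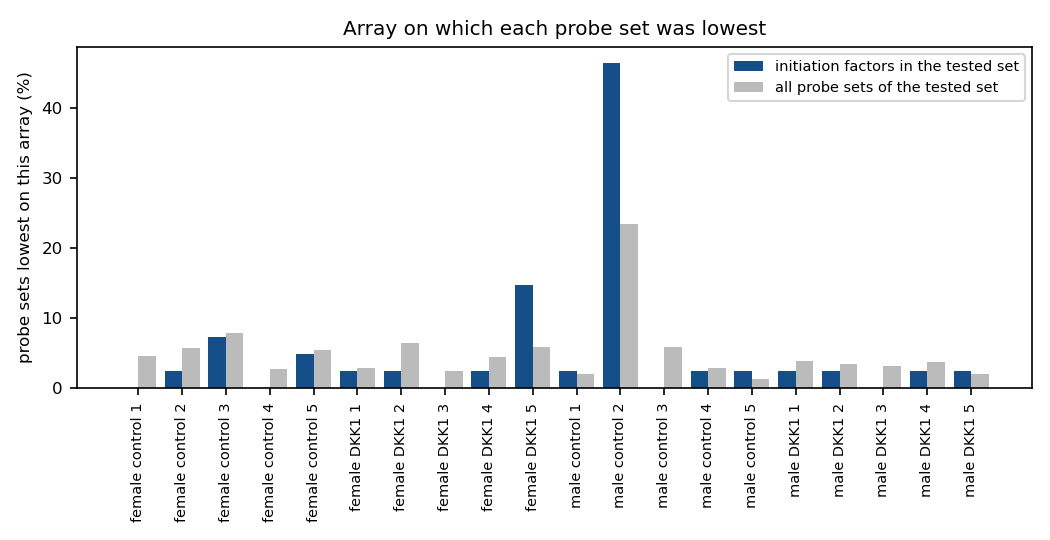
Percent of probe sets (vertical axis) that had their lowest signal on each of the 20 arrays (horizontal axis), for the 41 tested initiation factors and for the whole tested set. The bar of male control replicate 2 reaches 46.3% for the initiation factors and 23.4% for the tested set.

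Genes that work with the initiation factors were examined as 4 lists, and none of their tested genes passed the adjusted P in any of the 5 comparisons. All 15 initiation partners on the array, such as poly(A)-binding proteins, were in the tested set, and 0 had a limma P under 0.05. Without male control replicate 2, 1 of them did, the cap-binding protein *NCBP1* (-0.28 with DKK1 in females). The array enters this female contrast only through the shared estimate of spread, and the difference was -0.28 with it too. All 16 kinases and phosphatases upstream of initiation were also in the tested set, and 5 had a limma P under 0.05 in at least 1 of the 5 comparisons, as did 16.5% of the tested set and 7 of the 41 members. *PPP1R15B*, a subunit of the phosphatase that reverses eIF2 phosphorylation, differed with DKK1 by 0.49 ± 0.146 in males and 0.24 ± 0.103 over both sexes, with an interaction of -0.49 ± 0.206. Without male control replicate 2 these were 0.42, 0.21 and -0.42, and only the male difference had a limma P under 0.05. Its stress-induced relative *PPP1R15A* differed by -0.32 ± 0.135 over both sexes (-0.34 without that array) and -0.41 ± 0.191 in females.

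The other 3 act on mTOR signaling, which frees eIF4E from its binding proteins. *TSC1*, an inhibitor of this signaling, differed with DKK1 by -0.83 ± 0.300 in males, with an interaction of 1.01 ± 0.424. Without male control replicate 2, *TSC1* differed by -0.63 in males, with an interaction of 0.81 whose limma P was not under 0.05. *TSC2*, its partner, had an interaction of -0.56 ± 0.245, and of -0.58 without that array. *AKT1S1*, a subunit of an mTOR complex, differed by -0.50 ± 0.180 between females and males, and by -0.51 without it. *DDIT4*, a stress-induced inhibitor of mTOR, had a limma P under 0.05 for DKK1 only without that array (-0.57 in males and -0.36 over both sexes, against -0.37 and -0.26 with it).

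Of 10 genes of the integrated stress response around eIF2, 8 were in the tested set and 0 had a limma P under 0.05 for DKK1 or the interaction. For sex, 0 were higher in females at a limma P under 0.05 and 2 were lower, against 3.75% and 2.65% of the tested set. The female minus male difference was -0.34 ± 0.156 for *ATF3*, a stress-induced transcription factor, and -0.50 ± 0.179 for *IMPACT*, an inhibitor of EIF2AK4. Without male control replicate 2 these were -0.39 and -0.57. Of 9 elongation and termination genes, 6 were in the tested set. *EEF1D*, a subunit of the exchange factor of the elongation factor eEF1A, differed with DKK1 by 0.47 ± 0.185 in males, with an interaction of -0.57 ± 0.261. Without male control replicate 2 these were 0.28 and -0.38, and neither had a limma P under 0.05. On all arrays, the adjusted P was at least 0.484 for each of these genes.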

How the data were processed

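The deposited values are log2 intensities, 1 per probe set and array, produced by the authors with RMA in Affymetrix Expression Console (background correction, quantile normalization and summarization of probes). Versions of these programs are not given in the sources used here. RNA of each pool was amplified before labelling. All 20 arrays were used with their labelled sex and treatment, and no further normalization was applied. Symbols came from the array annotation, in which 18457 probe sets have 1 symbol, 688 several and 7628 none.

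The tested set matches in size the number of transcripts that the study called expressed, ranked by mean over all arrays. A cell-means model of the 4 groups, with no replicate term, since the study's methods give none for the arrays, was fitted to it in R 4.3.3 with limma 3.58.1, and P values were adjusted over it (Benjamini-Hochberg). The 4 members below it were taken from a fit over all probe sets. Exact permutation tests exchanged treatment labels within sex, or sex labels within treatment, in Python 3.11.15 with NumPy 2.4.6 and pandas 2.3.3. For the interaction, treatment labels were exchanged, which takes no DKK1 effect in either sex as the null. Fit and tests were checked on simulated data. Plots used matplotlib 3.10.9.

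Values per array are given for some, but not all, of the members with small limma P in a contrast, with extreme means, or with paralogs. Pathway genes are named where their limma P was under 0.05 with all arrays or without male control replicate 2. *EIF3H*, *EIF4B* and *EIF2AK2* were also named for their exact tests, which were added after values were seen. Members, lists and tests were chosen with earlier results of these data known. The study describes 5 replicates of embryo production, with X- and Y-sorted sperm of the same bulls, but the sources do not say whether the number of an array is its production replicate. Limma P values compare a difference with the spread between these pools, moderated over the probe sets fitted. Exact P values rank a difference among arrangements of the array labels.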

Additional observations from a re-analysis of the deposited data

Results flagged for a closer look

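In 20 of 180 groups of 5 arrays (45 initiation factors in 4 groups), the highest or lowest array was separated from the nearest other by more than 0.71 of the range of the group. Chance flags about 1 in 20 groups. Of these 20 groups, 8 were male control groups in which the array labelled replicate 2, which went against its label, stood apart. On it *EIF2B1* was high at 9.85, whereas *EIF2A* (6.98), *EIF3D* (9.66), *EIF3K* (9.44), *EIF4A1* (10.78), *EIF4A3* (8.88), *EIF4EBP1* (6.65) and *EIF6* (8.55) were low.

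Among female control arrays, *EIF2AK3* (5.75) was high and *EIF4G2* (10.63) low on replicate 3, *EIF2A* (8.84) high on replicate 4, *EIF3D* (10.92) high on replicate 2 and *EIF4B* (9.80) low on replicate 5. Among female DKK1 arrays, *EIF2AK1* (6.38) was low on replicate 5, *EIF2AK2* (3.30) high on replicate 2 and *EIF1AD* (8.27) high on replicate 4. On the other male arrays, *EIF3A* was low on control replicate 4 (10.07), *EIF3CL* low on control replicate 3 (10.56), *EIF3I* low on DKK1 replicate 4 (10.21) and *EIF4G2* high on DKK1 replicate 1 (10.79).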

How the results depend on the processing

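No member passed the adjusted P in any contrast under any of 31 alternatives, and none of the differences of the members with the 5 smallest limma P in each contrast changed sign. Counts of members at a limma P under 0.05 did depend on the setting. For DKK1 the count of 1 was 2 with array weights and 0 in the 5000 probe sets of highest mean, which do not include *EIF4E1B*. In females the count of 2 was 1 with array weights and 1 in that smaller set, again because *EIF4E1B* is not in it. In males the count of 2 was 4 in the unmoderated linear model and 4 with no expression threshold. The latter counts all 45 members, and *EIF2S1*, below the tested set, is among its 4. With the replicate number as a fixed block (replicate block), it was 1 in females, without *EIF4E1B* (limma P of 0.0674). For the interaction it was 2, not 4, without *EIF2B4* (limma P of 0.0671) and *EIF3D* (limma P of 0.0598). For DKK1 it stayed 1, but the member was *EIF2A* (0.35, limma P of 0.0408) and not *EIF4E1B* (-0.66, limma P of 0.0652). The main fit and the exact tests do not pair arrays by number, and whether the numbers mark pairs was not settled. With group means removed, 2 of 30 same-number pairs correlated above 0.1. Each array was also compared with those of the other groups, where 1 of 5 arrays in a group carries its number. Of the 20 arrays, 12 correlated best with their own number. This is a hint from the data, and not from the design, that some arrays of a number are alike. The mean correlation of same-number pairs ran from -0.03 for number 4 to 0.06 for number 1. With the number as a random block, the correlation within a number, estimated over the tested set, was 0.011. Leaving out each array in turn, counts ran from 0 to 3 for DKK1, 0 to 3 in females, 1 to 3 in males, 2 to 5 for the interaction and 0 to 2 for sex. The count for DKK1 was 3 without male control replicate 2 and 0 without any of female control replicates 2, 3 and 5, female DKK1 replicates 2 and 4, male control replicates 1, 4 and 5 and male DKK1 replicates 1, 4 and 5. In females it was 0 without female control replicate 4 or female DKK1 replicates 4 or 5, and 1 without female control replicates 2, 3 or 5, female DKK1 replicate 2, male control replicate 4 or male DKK1 replicates 3, 4 or 5. In males it was 1 without male DKK1 replicate 1 or 4. For the interaction it was 2 without female control replicate 2, female DKK1 replicate 3 or male DKK1 replicate 1 or 4. For sex it was 2 without female control replicates 1 or 2, female DKK1 replicate 4, male control replicate 4 or male DKK1 replicate 3, and 0 without female control replicate 5, female DKK1 replicates 2 or 5 or male DKK1 replicate 5. Median differences ran from -0.02 to 0.05 for DKK1, -0.08 to 0.03 in females, -0.02 to 0.08 in males, -0.11 to -0.01 for the interaction and -0.03 to 0.03 for sex. With array weights the interaction median was 0.00. With 5 arrays a group, 95% intervals of the interaction lay within 1.5-fold either way for 15 of 41 members, and for the rest the interval included larger interactions.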
